A study of Mus musculus with 24 samples.

Results

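Lipopolysaccharide (LPS), a component of the outer membrane of Gram-negative bacteria, was compared with saline in astrocytes of adult mice that lacked Serpine2 on both alleles (Serpine2-/-). The members are 6 of the 24 libraries of the series, chosen by their titles, with 3 libraries from LPS-injected knockouts and 3 from saline-injected knockouts. All 55487 gene identifiers in the astrocyte tables were read, and 18188 genes passed the filter on low counts and were tested. Astrocytes came from the cerebral cortex of perfused mice, freed with papain and bound to antibody-coated dishes, and total RNA was sequenced. The other astrocyte libraries, 3 from LPS-injected and 3 from saline-injected littermates with 1 or more working Serpine2 alleles (called controls), served to estimate the spread and to set the response beside that of the control genotype. Each knockout group held 2 males and 1 female, the female being replicate 3 in each. The sources used here give no dose, route or time of the LPS injection, and do not say which exons the knockout removes. They do not say either whether 1 library is 1 animal, so that p-values measure the spread between these libraries only.

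LPS is sensed through Toll-like receptor 4 with its partners CD14 and MD-2, which switches on NF-kB and interferon signalling. In mice given LPS, astrocytes are known to take up a reactive state, driven in part by cytokines that microglia release. Their reactive genes fall into families with known roles, among them secreted acute phase proteins, chemokines, antiviral proteins, antigen presentation by MHC class I, and complement. Serpine2 encodes protease nexin-1, a secreted inhibitor of thrombin and of plasminogen activators that astrocytes make.

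The targeted gene was read first. Serpine2 (ENSMUSG00000026249, GRCm38 chr1:79794197-79861180, minus strand) stood at 16.9, 16.4 and 18.4 CPM (counts scaled to a common library size) in LPS knockouts 1, 2 and 3, against 17.8, 17.4 and 22.2 CPM in saline knockouts 1, 2 and 3. Control libraries held 107, 80.1 and 78.2 CPM after LPS and 92.6, 169 and 163 CPM after saline, so that every knockout library lay below every control library. Reads on the gene remained in the knockouts. LPS did not change that remainder detectably (log2 fold change −0.15, 95% interval −0.66 to 0.36, edgeR adjusted p 0.857).

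The 6 knockout libraries held 13480023 to 25135252 gene counts and detected 22535 to 25177 genes, with 47.7% to 66.4% of counts on the 10 most abundant genes. They did not respond alike. On the first principal component of log2 CPM, which carried 28.4% of the variance, LPS knockouts 1, 2 and 3 lay at 88.2, 66.1 and 6.79 and the saline knockouts between −58.2 and −46.4. LPS knockout 3 was thus the LPS knockout library nearest the saline libraries, and the LPS control labelled replicate 3 was placed likewise at −6.34. Each is the only female of its LPS group, and whether the response differs by sex was not tested. With sex as a covariate 326 genes were called higher and 78 lower in knockouts. Saline knockout 2 stood apart on the third component, with 8.94% of the variance.

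Markers of astrocytes and of other brain cells were summed in each library, since a dish-bound preparation can hold more than 1 cell type. The 12 astrocyte markers summed to 19827, 22852 and 15990 CPM in LPS knockouts 1, 2 and 3, against 18819, 16829 and 19524 CPM in saline knockouts, with none at 0, and the label astrocyte held. Oligodendrocyte markers were the next most abundant, at 2186 to 5471 CPM in LPS knockouts and 2544 to 4291 CPM in saline knockouts. Microglia markers summed to 172, 759 and 347 CPM in LPS knockouts 1, 2 and 3, against 196, 171 and 158 CPM in saline knockouts. LPS knockout 2 was therefore the richest in microglia transcripts, while LPS knockout 1 lay within the saline range. LPS knockout 2 was also the highest LPS knockout for every other marker list except the monocyte one. Oligodendrocyte precursor markers summed to 234, 411 and 134 CPM in LPS knockouts and 138, 118 and 92.1 CPM in saline knockouts. Pericyte and smooth muscle markers summed to 132, 149 and 94.7 CPM against 121, 127 and 90.9 CPM, and border macrophage markers to 5.78, 27.1 and 10.8 CPM against 9.44, 3.62 and 3.73 CPM. Endothelial markers summed to 52.4, 110.4 and 41.6 CPM in LPS knockouts and 15.4, 5.38 and 7.25 CPM in saline knockouts, with no overlap and 4 of 12 genes called (Ly6c1, Flt1, Slco1a4 and Vwf). Of all genes tested 1.35% were called higher. Neuron markers, at 263, 549 and 213 CPM in LPS knockouts and 145, 182 and 136 CPM in saline knockouts, did not overlap either, nor did vascular fibroblast markers, at 33.6, 142 and 48.6 CPM in LPS knockouts and 29.0, 30.3 and 14.6 CPM in saline knockouts. Erythrocyte markers were lower, at 0.479, 0.862 and 0.664 CPM in LPS knockouts and 3.96, 2.10 and 3.16 CPM in saline knockouts. Monocyte markers summed to 362, 173 and 92.5 CPM in LPS knockouts, against 67.8, 56.6 and 56.5 CPM in saline knockouts, with Fn1 and Lyz2 called. Vcan and Cd44 gave most of that sum in LPS knockout 1 (158 and 192 CPM), and Cd44 is also on the pan-reactive list. Neutrophil markers were low, at 2.58, 26.2 and 4.44 CPM in LPS knockouts and 2.16, 0.977 and 0.861 CPM in saline knockouts, without overlap. S100a8 was the 1 called of 3 tested. Of the 12 neutrophil markers 6, 4 and 6 had no read in LPS knockouts 1, 2 and 3, against 9, 9 and 11 in saline knockouts, and the monocyte receptor gene Ccr2 had at most 0.102 CPM in LPS knockouts and none in saline knockouts. The part of these cells in the results below was not tested, and in such bulk samples fewer cells of a type and less RNA per cell cannot be told apart.

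**Figure D1:**
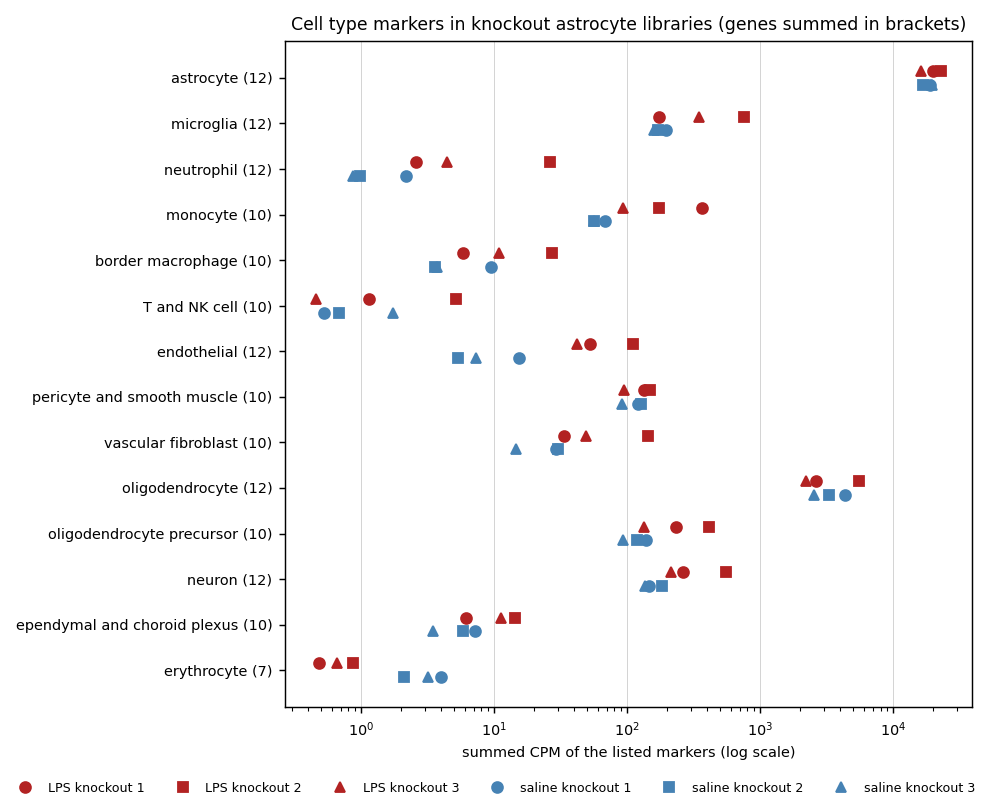
Summed CPM (log axis) of 14 marker lists in each knockout library, LPS in red above saline in blue, with symbols for replicates 1, 2 and 3. Astrocyte markers overlap between the groups, endothelial markers do not, and LPS knockout 2 is highest for microglia at 759 CPM and for most other lists.

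Far more genes were called higher than lower after LPS in knockout astrocytes. Separation of the libraries was more even. Over all genes tested every LPS library lay above every saline library in 9.53% and below in 7.43%. EdgeR's quasi-likelihood test called 245 genes higher and 38 lower at a Benjamini-Hochberg adjusted p under 0.05, which is 1.35% and 0.209% of the genes tested. The LPS and saline libraries did not overlap in 244 of the higher calls (Agt was the exception) and in all 38 of the lower calls. Of the 283 called genes, 272 were protein coding. The median log2 fold change of all genes tested was 0.04. Taking each LPS library against the mean of the saline knockouts, the 245 higher genes had a median log2 difference of 3.17 in LPS knockout 1, 3.10 in LPS knockout 2 and 2.15 in LPS knockout 3. LPS knockout 3 was the lowest of the LPS libraries for 158 of them. The counts hang on single libraries. Without LPS knockout 3 they were 446 higher and 115 lower, and without saline knockouts 1, 2 and 3 only 39, 49 and 35 genes were called higher.

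The genes named by rule were the 12 per direction with the largest fold changes among those averaging at least 5 CPM. Lcn2 (chr2:32384633-32388252, minus strand), a secreted lipocalin that binds bacterial iron carriers, had 822, 1122 and 369 CPM in LPS knockouts 1, 2 and 3, against 3.85, 6.11 and 3.73 CPM in saline knockouts. Even the lowest LPS library stood far above the highest saline library (log2 7.39, SE 1.25, edgeR adjusted p 0.0272). Serpina3n (chr12:104406729-104414329, plus strand), a secreted serine protease inhibitor, had 1111, 1361 and 393 CPM after LPS and 9.07, 17.1 and 13.1 CPM after saline (log2 6.19, SE 0.87, adjusted p 0.00976). Saa3, an acute phase serum amyloid, had 150.5, 389 and 93.9 CPM after LPS and 1.27, 1.32 and 1.29 CPM after saline (log2 7.34, SE 0.99, adjusted p 0.0091). In these genes LPS knockout 2 was the highest library and LPS knockout 3 the lowest.

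Chemokine, receptor and surface genes made up most of the rest. Ccl5, which draws in T cells and monocytes, had 26.0, 86.4 and 13.1 CPM in LPS knockouts and 0.144 to 0.244 CPM in saline knockouts (log2 7.63, SE 1.55, adjusted p 0.048). Cxcl9, a ligand of CXCR3 on T cells, had 37.0, 19.4 and 8.32 CPM after LPS and 0.0718 to 0.244 CPM after saline (log2 6.82, adjusted p 0.043). The scavenger receptor gene Marco had 53.1, 53.6 and 12.9 CPM after LPS and 0.158 to 0.391 CPM after saline (log2 7.22, adjusted p 0.0426). Their order across the LPS libraries differed, and LPS knockout 3 was the lowest in each. Ly6a, a surface antigen of the Ly6 family, ran the other way, with 4.82, 20.6 and 29.6 CPM after LPS against 0 to 0.342 CPM after saline (log2 7.10, adjusted p 0.00468). Ly6c1, a relative found on endothelial cells and here also an endothelial marker, had 5.93, 22.8 and 3.98 CPM after LPS and 0 to 0.211 CPM after saline (log2 6.34, adjusted p 0.00481). Pglyrp1, which binds bacterial peptidoglycan, had 16.5, 13.5 and 2.50 CPM after LPS and 0.106 to 0.195 CPM after saline (log2 6.12, adjusted p 0.00602). Mx1, Ifit1 and Serping1 completed the 12 and are described with their families.

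Genes that LPS lowered changed less, the median over the 38 being −1.26 (log2). Rpe65, known for the retinoid isomerase of the eye, had 0.810, 1.18 and 3.32 CPM in LPS knockouts against 16.4, 19.5 and 24.9 CPM in saline knockouts (log2 −3.52, SE 0.74, adjusted p 0.0344). Fezf2, a transcription factor known from cortical projection neurons, had 2.98, 5.82 and 9.80 CPM after LPS and 27.0, 36.4 and 43.6 CPM after saline (log2 −2.53, SE 0.46, adjusted p 0.012). Among more abundant genes, Vegfa, the vascular growth factor, had 49.1, 82.1 and 101 CPM after LPS and 193, 205 and 236 CPM after saline (log2 −1.45, SE 0.28, adjusted p 0.0165). Here LPS knockout 1 was the lowest library and LPS knockout 3 the nearest to saline. Ccn1, a matrix protein that binds integrins, had 95.1, 101 and 86.0 CPM after LPS and 227, 244 and 343 CPM after saline, an even drop across the LPS libraries (log2 −1.53, SE 0.24, adjusted p 0.00481). The growth factor gene Gdf10 was at −1.83 (adjusted p 0.0105), the G protein regulator Rgs16 at −1.78 (0.0277) and the cadherin of planar polarity Celsr1 at −1.42 (0.00976). The matrix gene Sned1 was at −1.97 (0.00508), the deaminase gene Dctd at −1.97 (0.0215) and Fam184b at −1.89 (0.0433). Ciart, a repressor in the circadian clock, at −1.37 (0.0278) and Tprkb, a partner of the p53-related kinase, at −1.35 (0.0427) close the set.

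**Figure D2:**
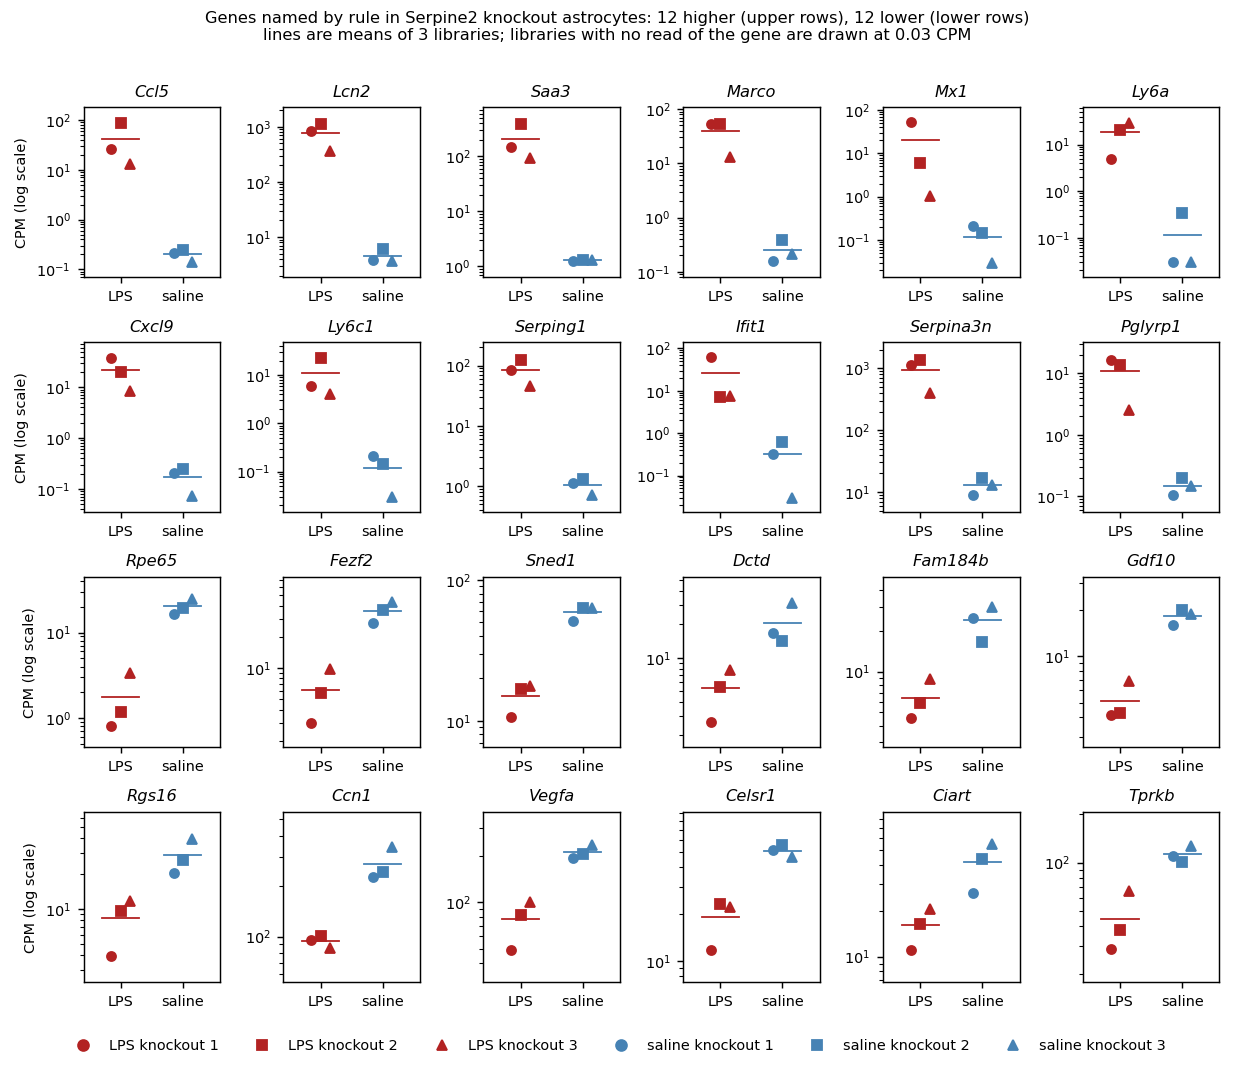
CPM (log axis) of the 24 genes named by rule in the 3 LPS and 3 saline knockout libraries, with a line at each group's mean and libraries with no read drawn at 0.03 CPM. The groups are apart in every panel, and LPS knockout 3 (triangle) is the lowest LPS library for Lcn2, Saa3 and Serpina3n.

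Reactive astrocyte genes stood high after LPS. Call counts of this list and of those below stand beside 1.35% of all genes tested called higher and 0.209% called lower. Pan-reactive genes, raised in astrocytes by many kinds of injury, were all higher after LPS by fold change (13 of 13, median log2 4.06 against 0.04 over all genes) and 5 of 13 were called. Gfap, the intermediate filament that marks reactive astrocytes, had 559.7, 1029.8 and 333 CPM in LPS knockouts 1, 2 and 3, against 63.5, 71.3 and 93.4 CPM in saline knockouts (log2 3.07, SE 0.47, adjusted p 0.00508). Vim, a second intermediate filament, had 87.6, 209 and 91.7 CPM after LPS and 27.9, 27.7 and 21 CPM after saline (log2 2.34, adjusted p 0.00481). Lcn2, Serpina3n and the sphingosine receptor gene S1pr3 (log2 3.95, adjusted p 0.0279) were the others called. Members that were not called often had large fold changes and uneven libraries. Cxcl10, an interferon-induced chemokine, had 2052, 47.5 and 10.9 CPM after LPS and 4.75, 6.16 and 4.02 CPM after saline (log2 7.14, SE 2.07, adjusted p 0.160). Osmr, the oncostatin M receptor gene, had 884, 101 and 32.6 CPM after LPS and 26.1, 13.3 and 21.7 CPM after saline (log2 4.06, adjusted p 0.253). Both genes were by far the highest in LPS knockout 1. The called number was 1 without saline knockout 1 and 9 without LPS control 3.

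A1 genes, named for astrocytes of LPS-treated mice, were called in 10 of 12 members tested, at a list median of 5.28 (log2) and without overlap between the groups in any of the 12. Over all genes tested every LPS knockout library lay above every saline knockout library in 9.53% and below in 7.43%. C3, the central complement component, had 13.5, 26.3 and 7.66 CPM in LPS knockouts and 0.158, 0.342 and 0.215 CPM in saline knockouts (log2 5.99, SE 0.99, adjusted p 0.00976). Serping1, the C1 inhibitor, had 85.9, 125 and 45.6 CPM after LPS and 1.11, 1.32 and 0.718 CPM after saline (log2 6.32, SE 0.93, adjusted p 0.0109). Both were highest in LPS knockout 2. Amigo2, an adhesion protein, had 78.9, 51.3 and 65.9 CPM after LPS and 9.02, 20.2 and 7.89 CPM after saline (log2 2.39, adjusted p 0.026), with the LPS libraries close together. Ggta1, a sugar transferase (log2 2.14, adjusted p 0.0184), Fbln5, an elastic fibre protein (3.44, 0.00512), and Srgn, a proteoglycan of secretory granules (3.68, 0.0393), were called too, as were Fkbp5, H2-D1, H2-T23 and Psmb8, given below. The 2 members not called were the GTPase genes Gbp2 and Iigp1, and both were called without LPS knockout 3 (adjusted p 0.0475 and 0.0449). Without saline knockout 3 the called members numbered 3.

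A2 genes, named for astrocytes after stroke, had 1 call among 12 tested, Cd14, and a median of 3.15 that was 1.85 without LPS knockout 1. LPS knockout 1 was the highest LPS library for 11 of the 12. Ptx3, a long pentraxin, had 83.1, 2.21 and 0.970 CPM in LPS knockouts 1, 2 and 3 and 1.12 to 2.06 CPM in saline knockouts. Slc10a6, a steroid sulfate carrier, had 63.0, 0.377 and 0.459 CPM after LPS and 0.0718 to 0.929 CPM after saline. Their fitted fold changes of 4.14 and 5.50 (adjusted p 0.346 and 0.363) thus come from 1 library, and were −0.038 and −0.13 without it. Stat3, the transcription factor of the reactive response, had 292, 150.2 and 72.2 CPM after LPS against 52.2, 58.0 and 50.2 CPM after saline, with no overlap (log2 1.68, adjusted p 0.0808, and 0.00766 without LPS knockout 3).

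**Figure D3:**
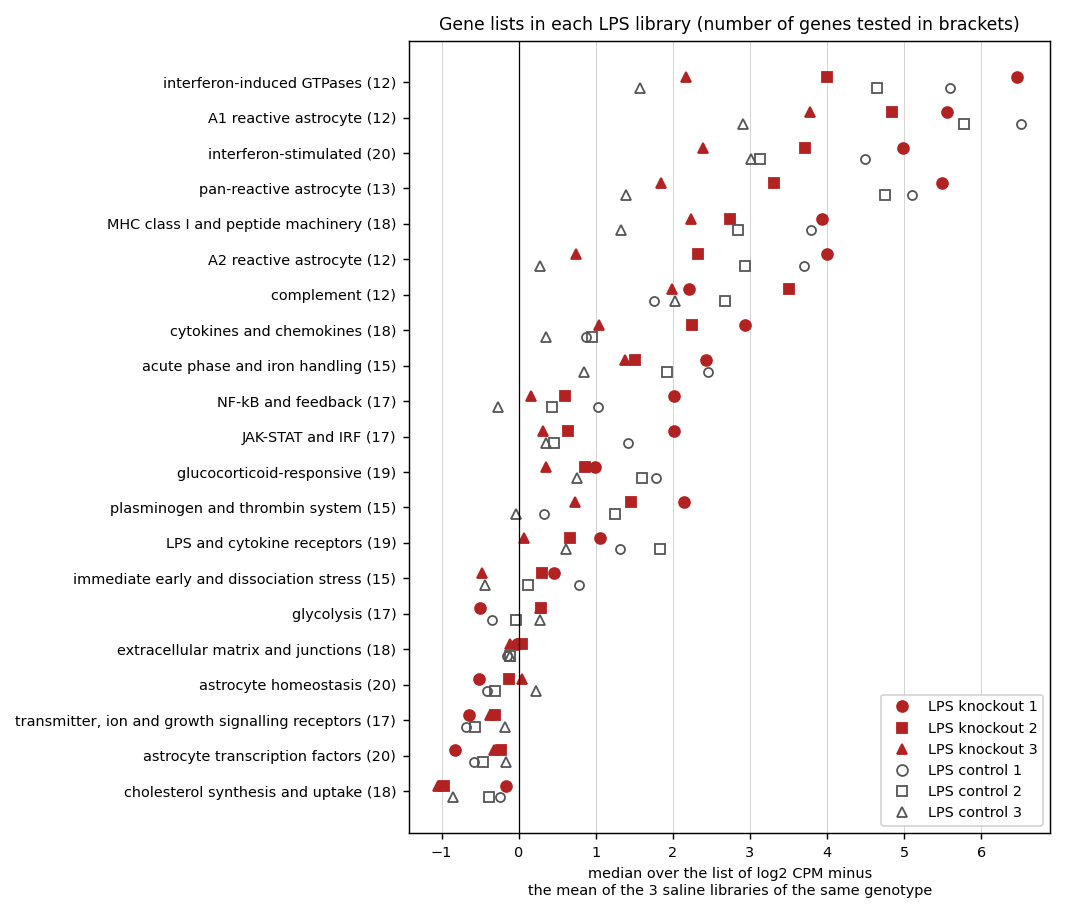
Median over each list of log2 CPM minus the mean of the saline libraries of the same genotype, one symbol per LPS library, knockouts filled and controls open. LPS knockout 1 is highest for the interferon-induced GTPases at 6.46 and LPS knockout 3 lowest at 2.17, while for complement LPS knockout 2 is highest at 3.51.

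Acute phase and iron genes were led by the secreted proteins above. Besides Lcn2 and Saa3, the protease trap A2m was called at 159.7, 82.5 and 26.1 CPM in LPS knockouts against 7.39, 9.09 and 8.68 CPM in saline knockouts (log2 3.41, SE 0.58, adjusted p 0.013). Fth1, the ferritin heavy chain that stores iron, had 996, 2759 and 1531 CPM after LPS and 599, 630.2 and 533 CPM after saline (log2 1.58, SE 0.33, adjusted p 0.024), a value that processed copies of the gene could blur. Haptoglobin (Hp), which binds free haemoglobin, was called with 2.14, 0.808 and 0.510 CPM after LPS and no read in any saline knockout, so no fold is given. In all 5 of 15 tested were called, with a median of 1.68. Ceruloplasmin (Cp), a copper-carrying iron oxidase, had 107, 46.5 and 17.7 CPM after LPS and 1.27 to 2.30 CPM after saline and was not called (log2 5.15, adjusted p 0.0808). The called number was 0 without saline knockout 1.

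Receptors for LPS and cytokines moved less, with 2 of 19 called and a median of 0.63. Tlr4 itself was low in both groups, at 5.63, 4.20 and 3.47 CPM in LPS knockouts and 3.80, 1.95 and 6.53 CPM in saline knockouts, which overlapped (log2 0.12, adjusted p 0.943). Its coreceptor Cd14 had 12.4, 3.34 and 4.70 CPM after LPS and 0.528, 1.22 and 0.431 CPM after saline (log2 3.20, SE 0.63, adjusted p 0.0176). Tnfrsf1a, the main receptor for TNF, had 85.4, 36.6 and 32.5 CPM after LPS and 7.81, 9.73 and 14.0 CPM after saline (log2 2.30, SE 0.44, adjusted p 0.0167). Neither called receptor overlapped between groups, and no member was called without saline knockout 1.

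Among 18 cytokines and chemokines tested, 3 were called, Ccl5, Cxcl9 and the neutrophil attractant Cxcl2, with a median of 2.33 over the list. Cxcl2 had 5.78, 8.73 and 0.817 CPM in LPS knockouts and 0.144 to 0.369 CPM in saline knockouts (log2 4.28, adjusted p 0.0195). The inflammatory cytokine genes Tnf (at most 3.29 CPM after LPS) and Il1b (at most 2.98 CPM) were low and not called (adjusted p 0.258 and 0.16). Ccl2, a monocyte attractant, had 47.6, 1.56 and 1.12 CPM after LPS and 0.215 to 0.317 CPM after saline (log2 5.88, adjusted p 0.0854). Once more LPS knockout 1 carried most of it. Il33, an alarmin of the nucleus, had lower values, at 41.9, 76.4 and 80.5 CPM after LPS and 124, 129 and 112 CPM after saline, without a call (log2 −0.87, adjusted p 0.112). No member of the list was called without saline knockout 1.

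NF-kB subunits and the feedback genes they switch on had no call among 17 tested, a median of 1.25, and 15 fold changes above 0. The per-library medians show how uneven they were, at 2.02 in LPS knockout 1, 0.60 in LPS knockout 2 and 0.16 in LPS knockout 3, and LPS knockout 1 was highest for all 17. The adhesion molecule gene Icam1 had 60.8, 6.19 and 2.40 CPM in LPS knockouts and 0.586 to 1.65 CPM in saline knockouts (log2 4.47, adjusted p 0.16). Nfkbia, the inhibitor that shuts NF-kB off, had 62.2, 21.1 and 13.5 CPM after LPS and 6.01, 14.4 and 12.6 CPM after saline, which overlapped (log2 1.56, adjusted p 0.159). Without LPS knockout 3, 4 members were called, Nfkbia among them (adjusted p 0.0361). In LPS knockout 1 the microglia marker sum (172 CPM) lay within the saline range, while its endothelial and monocyte sums (52.4 and 362 CPM) lay above it. Most of that monocyte sum came from Vcan and Cd44, as given above, and the monocyte receptor gene Ccr2 had no read in LPS knockout 1. The part of other cells in the NF-kB values was not tested.

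Interferon genes followed, first the signalling proteins and then their targets. Of 17 JAK, STAT and IRF genes tested, with a median of 1.20, the calls included Irf7 and Irf9. Irf7, which amplifies interferon production, had 23.2, 16.9 and 4.85 CPM in LPS knockouts and 1.42, 0.391 and 2.15 CPM in saline knockouts (log2 3.52, SE 0.68, adjusted p 0.0173). Irf9, a DNA-binding part of the complex that carries the type I interferon signal, had 47.8, 17.6 and 26.6 CPM after LPS and 9.34, 13.6 and 8.11 CPM after saline (log2 1.57, SE 0.37, adjusted p 0.043). Neither gene overlapped between groups. In all 3 of the 17 were called, 1 without LPS knockout 1, where the median was 0.43, and 0 without saline knockout 1. Interferon-stimulated genes rose in 11 of 20 members, all 20 had fold changes above 0, 19 did not overlap (9.53% of all genes lay as clearly above saline), and the median was 4.44. Ifitm3, which blocks the entry of viruses into cells, had the smallest adjusted p of the list, with 132, 241 and 111 CPM after LPS and 4.75, 5.82 and 4.45 CPM after saline (log2 5.01, SE 0.39, adjusted p 5.31e-06). Oasl2, of the oligoadenylate synthetase family, had 163, 101 and 35.4 CPM after LPS and 1.27, 1.17 and 2.58 CPM after saline (log2 5.92, SE 0.66, adjusted p 0.00144). The ubiquitin-like Isg15 had 45.9, 13.1 and 2.25 CPM after LPS and 1.11, 0.293 and 0.646 CPM after saline (log2 4.90, SE 0.96, adjusted p 0.0277). Mx1, an antiviral GTPase, had 52.7, 5.87 and 1.02 CPM after LPS and 0 to 0.211 CPM after saline (log2 7.20, adjusted p 0.0412). Ifit1, which binds viral RNA, had 62.9, 7 and 7.40 CPM after LPS and 0 to 0.635 CPM after saline (log2 6.22, adjusted p 0.0484). LPS knockout 1 was the highest library for 16 of the 20 genes, Ifitm3 being one of the others. Bst2 (log2 5.52, adjusted p 0.00197), the isopeptidase Usp18 (4.55, 0.0113), Rtp4 (3.09, 0.0109), the RNA sensor Ddx58 (2.70, 0.0187), Ifit3 (2.45, 0.0278) and Lgals3bp (2.21, 7.56e-05) were called too. The called number was 16 without LPS knockout 3 and 4 without saline knockout 1.

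Interferon-induced GTPases, which attack the vacuoles of intracellular microbes, had a median of 5.83, or 3.70 without LPS knockout 1. All 12 members lay above saline in every LPS library, against 9.53% of all genes, and 2 were called. Irgm2 had 61.3, 20.6 and 10.9 CPM in LPS knockouts and 2.85, 2.39 and 3.16 CPM in saline knockouts (log2 3.47, SE 0.68, adjusted p 0.024). Tgtp2 had 11.1, 3.12 and 0.664 CPM after LPS and 0 to 0.158 CPM after saline (log2 5.92, adjusted p 0.0398). Gbp2, which was not called, had 707, 101 and 13.6 CPM after LPS and 2.48, 3.52 and 2.87 CPM after saline (log2 6.53, SE 1.72, adjusted p 0.126). LPS knockout 1 was the highest library for all 12. Called members numbered 9 without LPS knockout 3 and 0 without saline knockout 1. Reads may be shared among the near-identical Gbp genes, Tgtp1 and Tgtp2, Ifit3 and Ifit3b, and H2 class I genes, and their single values are uncertain for that reason.

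Because these families moved together, the 250 bases before their RefSeq starts were searched for 3 motifs on both strands, in the RefSeq table of build GRCm38.p6. The interferon-stimulated response element (ISRE, GAAANNGAAA) is bound by interferon regulatory factors, the gamma-activated site (GAS, TTCNNNGAA) by STAT dimers, and the kB site (GGGANNTTCC) by NF-kB. Windows were found for 182 of the 245 genes called higher and 31 of the 38 called lower. ISRE letters were in 9 of 10 GTPase windows (90.0%), 7 of 17 interferon-stimulated windows (41.2%) and 3 of 18 MHC class I windows (16.7%), against 2.98% of all 32851 windows in the table. Among genes called higher 23 of 224 windows held one (10.3%), among those called lower 3 of 41 (7.32%), and of the NF-kB list 0 of 17. GAS letters were in 6 of 10 GTPase windows (60.0%) against 7.02% of all windows, and kB letters in 3 of 17 NF-kB windows (17.6%) against 1.21% of all. The letters did not keep to 1 family. GAS letters were also in 23.5% of NF-kB, 17.6% of interferon-stimulated, 5.56% of MHC class I and 8.48% of called-higher windows. For kB letters the shares were 11.8% of interferon-stimulated, 10.0% of GTPase and 5.56% of MHC class I windows. The 10 GTPase windows came from 9 genes. A match is a description of the letters and not a site of binding.

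4 of these windows are shown, for a gene of each family just described and for B2m of the next, 5′ to 3′ with the matches in capitals. Ifit1 (chr19:34640639-34640888, plus strand) holds 2 ISRE matches, Isg15 (chr4:156200819-156201068, minus strand) holds 3 that overlap, Gbp2 (chr3:142620413-142620662, plus strand) holds 1, and B2m (chr2:122147437-122147686, plus strand) holds an ISRE match followed by a kB match.
Ifit1: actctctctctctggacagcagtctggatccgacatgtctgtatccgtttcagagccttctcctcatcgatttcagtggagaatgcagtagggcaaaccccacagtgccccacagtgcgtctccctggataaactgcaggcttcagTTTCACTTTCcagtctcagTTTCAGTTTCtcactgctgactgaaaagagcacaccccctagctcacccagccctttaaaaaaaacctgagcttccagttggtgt
Isg15: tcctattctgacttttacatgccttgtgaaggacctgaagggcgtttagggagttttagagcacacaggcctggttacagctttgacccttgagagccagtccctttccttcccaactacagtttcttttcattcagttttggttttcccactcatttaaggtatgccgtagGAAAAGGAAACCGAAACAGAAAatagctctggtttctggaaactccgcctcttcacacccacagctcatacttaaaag
Gbp2: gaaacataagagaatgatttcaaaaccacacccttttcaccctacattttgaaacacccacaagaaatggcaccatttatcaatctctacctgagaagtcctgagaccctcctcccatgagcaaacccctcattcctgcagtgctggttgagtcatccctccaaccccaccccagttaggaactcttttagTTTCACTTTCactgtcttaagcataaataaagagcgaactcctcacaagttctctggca
B2m: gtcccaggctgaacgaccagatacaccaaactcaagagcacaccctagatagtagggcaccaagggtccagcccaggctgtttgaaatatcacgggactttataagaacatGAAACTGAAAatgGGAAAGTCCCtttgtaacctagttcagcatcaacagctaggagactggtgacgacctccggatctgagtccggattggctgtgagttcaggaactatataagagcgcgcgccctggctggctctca

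The MHC class I pathway, which cuts proteins and shows the peptides at the cell surface, had the most calls of any list. Of 18 genes tested 12 were called, all 18 had fold changes above 0, and the median was 3.36. B2m, the light chain of every class I molecule, had 315, 359 and 241 CPM in LPS knockouts 1, 2 and 3, against 44.7, 57.1 and 50.6 CPM in saline knockouts (log2 2.59, SE 0.28, adjusted p 0.000276). All 3 LPS libraries lay far above saline, and the classical heavy chains follow. H2-K1 had 212, 173 and 185 CPM after LPS and 19.1, 25.8 and 23 CPM after saline (log2 3.07, SE 0.44, adjusted p 0.00376). H2-D1 had 332, 242 and 157 CPM after LPS and 8.55, 8.36 and 5.38 CPM after saline (log2 5.03, SE 0.52, adjusted p 0.000316). The nonclassical heavy chain H2-T23 had 34.4, 54.9 and 34.7 CPM after LPS and 0.686, 0.831 and 0.359 CPM after saline (log2 5.99, SE 0.68, adjusted p 0.000964). None of these genes had LPS libraries near the saline ones. Along the path, the immunoproteasome subunits Psmb8 (log2 5.44, adjusted p 0.00366), Psmb9 (3.24, 0.0256) and Psmb10 (2.17, 0.043), the activator Psme1 (2.18, 0.00799), the peptide pump subunit Tap2 (2.97, 0.0417) and the loading factor Tapbp (2.84, 0.00894) were called. H2-T22 (3.65, 0.00603) and Nlrc5, the activator of class I genes (4.94, 0.012), complete the 12. Tap1, the partner of Tap2, had 232, 19.4 and 19.1 CPM after LPS and 3.11 to 5.88 CPM after saline, with LPS knockout 1 alone high (log2 4.31, adjusted p 0.154). Called members numbered 6 without saline knockout 1 and 14 without LPS control 3.

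Complement genes were called in 6 of 12 members, all 12 had fold changes above 0, and the median was 2.62. C4b, a component of the classical pathway, had 111, 156 and 112 CPM in LPS knockouts and 17.9, 24.0 and 18.7 CPM in saline knockouts (log2 2.64, SE 0.24, adjusted p 2.77e-05). C1ra, a protease of the first component, had 13, 13.2 and 3.32 CPM after LPS and 0 to 0.293 CPM after saline (log2 6.19, adjusted p 0.024). Its partner C1s1 was called with 6.81, 2.15 and 1.89 CPM after LPS, while the saline libraries held 1 read among them and no fold is given. C3 and Serping1 were given above. The C1q chains are known from microglia. C1qb, the sixth call, had 44.0, 175 and 60.2 CPM after LPS and 13.7, 16.8 and 15.9 CPM after saline (log2 2.59, adjusted p 0.0167), and C1qa had 9.43, 108 and 30.6 CPM after LPS and 6.89 to 8.11 CPM after saline (log2 2.71, adjusted p 0.195). LPS knockout 2 was the highest library for 9 of the 12 genes and also had the highest microglia sum, 759 CPM. Most other marker sums were highest in that library too. The part of microglia in these values was not tested. C4b and its copy C4a share reads, so that C4b is uncertain, and only 1 gene of the list was called without saline knockout 2.

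Genes that glucocorticoids raise, a response to stress hormones, were called in 4 of 19 members with a median of 1.08. Fkbp5, a chaperone of the glucocorticoid receptor, had 93.3, 41.7 and 31.6 CPM in LPS knockouts and 1.58, 1.08 and 2.15 CPM in saline knockouts (log2 5.13, SE 0.79, adjusted p 0.0105). The zinc finger gene Zbtb16 had 44.8, 19.7 and 14.9 CPM after LPS and 7.54, 5.96 and 3.95 CPM after saline (log2 2.18, adjusted p 0.0176). The sulfotransferase gene Sult1a1 (log2 1.81, adjusted p 0.0105) and Hif3a (1.31, 0.0447) were the others. Fkbp5 was apart from saline in every LPS library. Cdkn1a, the cell cycle inhibitor p21, had 1249, 369 and 82.3 CPM after LPS and 8.39, 19.5 and 9.98 CPM after saline, without a call (log2 5.49, adjusted p 0.0773, and 0.0262 without LPS knockout 3). No member was called without saline knockout 1.

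Cholesterol synthesis and uptake genes pointed downward. Astrocytes are known as the main makers of cholesterol in the adult brain. All 18 members tested had lower fitted values after LPS, with a median of −0.60 and 2 calls. Insig1, which holds back cholesterol synthesis when sterols are plentiful, had 199, 136 and 167 CPM in LPS knockouts and 366, 376 and 332 CPM in saline knockouts (log2 −1.10, SE 0.21, adjusted p 0.0129). Dhcr7, which makes cholesterol in the last step of one branch, had 58.5, 44.0 and 57.8 CPM after LPS and 90.9, 152 and 104 CPM after saline (log2 −1.11, SE 0.23, adjusted p 0.0244). For neither gene did the groups overlap. Hmgcs1, the synthase at the start of the path, had 209, 128 and 101 CPM after LPS and 330.4, 223 and 295 CPM after saline (log2 −0.95, adjusted p 0.148). The list was unlike the immune ones in its pattern over libraries, since its median stood at −0.17 in LPS knockout 1 and at −0.97 and −1.04 in LPS knockouts 2 and 3. Without LPS knockout 1 the median was −0.95 and 6 members were called, Hmgcs1 among them (adjusted p 0.0401), and without saline knockout 2 none was.

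**Figure D4:**
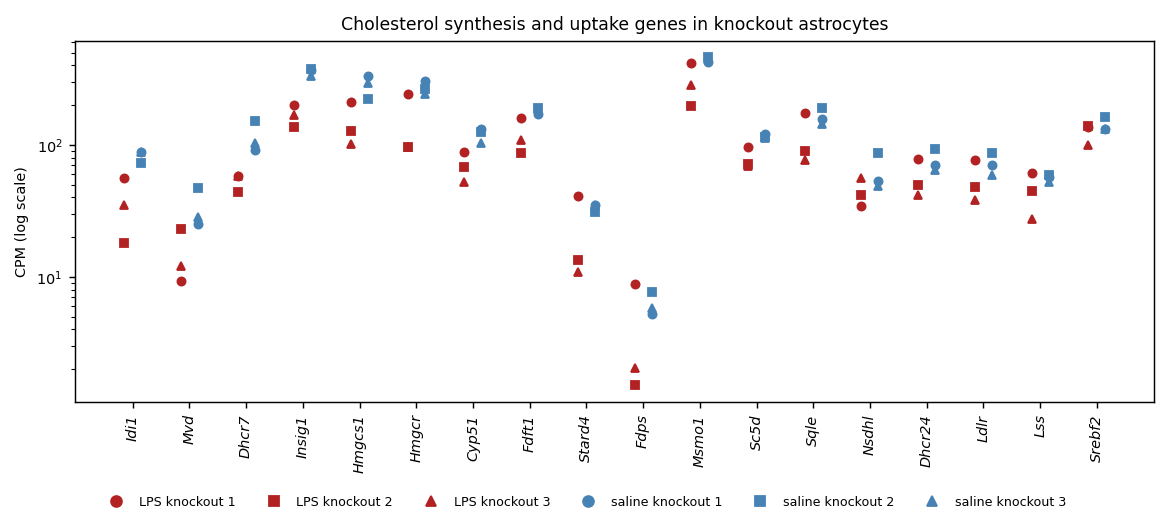
CPM (log axis) of the 18 cholesterol genes in LPS (red, left) and saline (blue, right) knockout libraries, ordered by fold change. For most genes LPS knockouts 2 and 3 (square, triangle) lie below the saline libraries, while LPS knockout 1 (circle) lies within or above them for some, such as Stard4, Fdps and Sqle.

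Genes of ordinary astrocyte work had no call, where 1.56% of all genes tested were called. Lists of this size would hold few calls or none at that share. Of 20 homeostasis genes tested 6 had fold changes above 0, and the median was −0.16. The glutamate transporter gene Slc1a2 had 12456, 13419 and 7202 CPM in LPS knockouts and 10979.9, 7647 and 10719 CPM in saline knockouts, and the water channel gene Aqp4 had 886, 601 and 509 CPM after LPS and 839, 623 and 974 CPM after saline. Both overlapped (log2 0.17 and −0.29, adjusted p 0.846 and 0.668). The gap junction genes differed in sign, with Gja1 at 269.6, 293 and 733 CPM after LPS against 687, 707 and 741 CPM after saline, and Gjb6 at 599, 332 and 692 CPM after LPS against 245, 342 and 301 CPM after saline. Neither was called (log2 −0.72 and 0.87, adjusted p 0.541 and 0.118). Of 17 receptors for transmitters and growth signals none was called (median −0.37), and of 17 glycolysis genes none (median 0.06). Immediate early and dissociation stress genes, a sign of handling, had 0 of 15 called and a median of 0.26. The groups did not overlap for 3 of 20 homeostasis genes, 8 of 17 receptors, 1 of 17 glycolysis genes and 5 of 15 stress genes. Over all genes 9.53% lay above and 7.43% below without overlap.

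Of 20 astrocyte transcription factors 1 was called, Hes1, a target of Notch, at 10.8, 13.1 and 22 CPM in LPS knockouts against 32.2, 37.0 and 37.7 CPM in saline knockouts (log2 −1.22, SE 0.28, adjusted p 0.0401, and 0.0995 without LPS knockout 1). Its relative Hes5 had 3.42, 21.9 and 21.2 CPM after LPS and 34.4, 44.1 and 29.4 CPM after saline (log2 −1.22, adjusted p 0.265). Gli1, the target of hedgehog signals, had 17.6, 23.2 and 44.6 CPM after LPS and 7.54 to 9.48 CPM after saline, highest in LPS knockout 3 (log2 1.70, adjusted p 0.0617). The median of the list was −0.49, and no member was called without saline control 3. Among 18 genes of matrix and junctions, with a median of −0.03, Sparc (log2 1.33, adjusted p 0.037), Col4a1 of basement membranes (3.06, 0.0344) and fibronectin (Fn1, 3.31, 0.0256) were called. Sparc had 221.3, 464 and 338 CPM after LPS and 151, 131 and 125 CPM after saline, and Fn1 had 6.33, 32.6 and 16.3 CPM after LPS and 1.65 to 2.11 CPM after saline. Fn1 is also on the monocyte list, and Sparc and Col4a1 are known from vessel cells. The endothelial and fibroblast sums were higher in every LPS knockout library than in any saline knockout library. The part of those cells was not tested.

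The plasminogen and thrombin system, on which the missing inhibitor acts, had 2 calls among 15 genes tested and a median of 0.98. F2r, the main receptor that thrombin cleaves, had 16.8, 7.33 and 7.55 CPM in LPS knockouts and 4.33, 2.54 and 1.58 CPM in saline knockouts (log2 1.90, SE 0.45, adjusted p 0.045). Anxa2, a surface anchor for plasminogen and its activator, had 10.5, 18.0 and 10.4 CPM after LPS and 0.739, 2.93 and 0.144 CPM after saline (log2 3.31, SE 0.76, adjusted p 0.0393). The activator itself, Plat, had 106, 38.8 and 18.6 CPM after LPS and 10.4, 11.3 and 11.7 CPM after saline, without overlap or call (log2 2.29, adjusted p 0.061). The F2r call did not hold without LPS knockout 1 (adjusted p 0.155), and no member was called without saline control 1. Over 21 settings of the fit F2r was called in 9 and Anxa2 in 15.

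The response of knockouts was set beside that of control astrocytes, which share no library with it but share the gene dispersions of the fit. In controls 141 genes were called higher (0.775%) and 28 lower (0.154%). Genes called higher in both genotypes numbered 105, which is 42.9% of the knockout calls and 74.5% of the control calls. Those called lower in both numbered 7, or 18.4% and 25.0%. Of the genes called in knockouts, 243 of 245 higher and 37 of 38 lower had the same sign in controls. Their median log2 fold change was 3.05 in knockouts and 2.36 in controls for the higher genes, a set chosen on the knockout values, and −1.26 in knockouts and −0.95 in controls for the lower genes. List medians were close for A1 genes (5.28 in knockouts, 6.02 in controls), MHC class I (3.36 and 2.78), complement (2.62 and 2.80) and cholesterol (−0.60 and −0.50). They were further apart for cytokines (2.33 in knockouts, 0.80 in controls) and NF-kB genes (1.25 in knockouts, 0.15 in controls). Without LPS knockout 1 the knockout medians of these lists were 2.15 and 0.41. No list was tested for a difference between genotypes.

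Whether the response itself differed between genotypes was tested gene by gene as an interaction. EdgeR's test called 0 genes (0.0%). Before adjustment 473 genes had p under 0.05, which is 2.601% of those tested, where 5% would be past it with no difference at all. A share below 5% means that the p-values ran high, and it does not show that the genotypes respond alike. The cause was not tested. DESeq2 likewise called 0, and the fit with no filter on low counts 13. The depth of the comparison is limited by the spread, since the 95% interval of the difference reached a median of 1.38 to either side of its estimate on the log2 scale. For Lcn2, as an example with a wide spread, the log2 fold change was 7.39 in knockouts and 7.26 in controls, and for Ccn1 −1.53 in knockouts and −0.71 in controls, neither called as a difference.

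**Figure D5:**
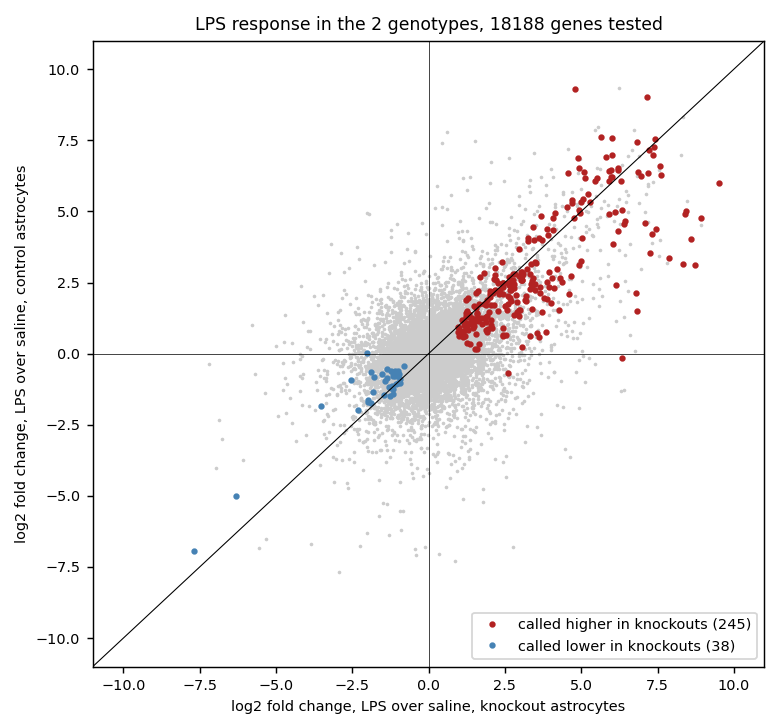
Log2 fold change, LPS over saline, of each of the 18188 genes tested in knockout (x axis) and control astrocytes (y axis), with the knockout calls coloured and a line of equality. Of the 245 genes called higher in knockouts 243 lie above 0 in controls too, and the 2 coloured points far to the lower left are Gpr50 and Trpc7, low genes named here after their values were seen, at 0 to 0.0510 CPM in LPS knockouts and 0.440 to 2.59 CPM in saline knockouts.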

How the data were processed

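Whole-number read counts per gene were deposited by the authors, 1 table per library. Per the submitters' processing notes the tools included STAR 2.6.0c and HTSeq, and both GRCm38 and GRCm39 are named without a role. No strand setting is given in the sources used here, so reads of overlapping and antisense genes cannot be told apart. Rows that name no gene held 21.5% to 26.6% (reads outside genes) of the knockout libraries and were dropped. Symbols and positions came from GENCODE M21 on GRCm38, which matched 55141 of 55487 identifiers, and promoters from RefSeq.

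The 12 astrocyte libraries in 4 groups of 3 were fitted together with edgeR 4.0.16 (TMM scaling, genes kept by filterByExpr at min.count 10 and min.total.count 15, robust quasi-likelihood test). Calls needed a p under 0.05 after Benjamini-Hochberg adjustment across every tested gene. CPM used TMM-scaled library sizes, log2 CPM a prior count of 2, and fold changes are fitted values. Errors after log2 fold changes are standard errors. The named genes were, in each direction, the 12 called genes of largest fold change that averaged 5 CPM or more. Genes outside that rule came from lists, and the members, lists and examples were chosen with earlier results of these data known. Replicates differed by far more than counting noise, so no library was counted as a copy of another. The values of 1 member of the gene lists are not reported here.

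On simulated counts for 18188 genes with 200 changed in the LPS against saline comparison of knockouts, the test recovered 1.5% of 2-fold, 45.5% of 4-fold and 77% of 8-fold changes, with 0, 6 and 9 false calls. The simulated libraries were independent, with 1 dispersion per gene in all groups. Real LPS knockouts lay further apart on the first principal component than saline knockouts, so these shares may not hold for the real counts. Same-numbered LPS knockouts and LPS controls deviated together (correlation across genes 0.297, 0.157 and 0.354), while same-numbered saline knockouts and controls did not (−0.0998, −0.0094 and 0.0071). The labels do not tie the numbers together, and replicate 3 is the only female of each LPS group. Whether the numbers pair LPS libraries was not tested. Alternatives were RLE size factors, DESeq2 1.42.0, other count filters, sex, the replicate block or the share of reads outside genes as covariates, a fit of the 6 knockout libraries alone, and the omission of each library in turn. Where 1 library is named for the lowest or highest call count of a list, it is the first in order. Omitting others may give the same count.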

Additional observations from a re-analysis of the deposited data

How the results depend on the processing

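The knockout comparison gave 245 genes higher and 38 lower, and the control comparison 141 and 28. DESeq2 gave 634 higher and 192 lower in knockouts (282 of the 283 calls among them) and 472 and 155 in controls. With no filter on low counts the numbers were 819 and 208 in knockouts and 610 and 194 in controls, and 13 for the difference between genotypes. Sex as a covariate gave 326 and 78 in knockouts and 217 and 78 in controls. Each genotype fitted alone gave 168 and 16 in knockouts and 256 and 93 in controls. Omitting LPS replicate 3 of both genotypes gave 648 and 264 in knockouts and 485 and 249 in controls. Leaving out each library in turn gave 35 to 446 higher and 3 to 115 lower in knockouts, and 32 to 316 higher and 2 to 160 lower in controls; the lowest knockout counts came without saline knockout 3 and the highest without LPS knockout 3. The replicate block gave 341 and 82 in knockouts and 216 and 70 in controls. Same-numbered LPS and saline knockouts correlated at 0.0786, 0.0912 and 0.0697 across genes, each best with its own number. That is a hint from the data and not from the labels. Whether the numbers pair LPS and saline knockouts was not tested. For the difference between genotypes, the replicate block gave 0 calls, the same as without. A replicate block within injection, which treats same-numbered libraries of an injection as pairs, gave 0 too. RLE size factors, a minimum count of 50 and the share of reads outside genes as a covariate kept the knockout counts within 1.5 times. Of 115 named called genes, 71 kept the call in every alternative with all libraries and 16 in every alternative, among them B2m, H2-D1, H2-K1, H2-T23, Ifitm3, C4b, Vim, Ly6a, Ccn1 and Sned1. Over the named genes 3 changed sign. Over 21 settings of the fit, Ptx3 ranged from −0.038 to 4.71, Slc10a6 from −0.13 to 6.64 and Tlr4 from −0.21 to 0.63 (log2). The lowest values came without LPS knockout 1 for Ptx3 and Slc10a6 and without saline knockout 2 for Tlr4, which was also below 0 without LPS knockout 1. The cause of these changes was not tested. With 3 libraries a group, changes of 2-fold were mostly out of reach of the test on the simulated counts.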

Other observations

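Genes outside the lists are given here as values, all chosen after their values were seen. The first are genes of the circadian clock, of which no full list was counted. Dbp, a clock-driven transcription factor, had 12.6, 11.6 and 20.9 CPM in LPS knockouts 1, 2 and 3, against 29.7, 33.8 and 43.2 CPM in saline knockouts (log2 −1.24, edgeR adjusted p 0.0387). The clock repressors Nr1d2 (log2 −1.16, adjusted p 0.0275), Bhlhe40 (−0.98, 0.0283) and Bhlhe41 (−0.80, 0.0473) fell too, while the activator Npas2 rose (1.19, 0.0401). The labels give no hour of collection, and a part of the hour in these values was not tested. Ptn, a secreted growth factor, had 423, 392 and 456 CPM after LPS and 939.6, 938 and 943 CPM after saline (log2 −1.15, adjusted p 0.0277). Its libraries were close together within each group. Hey1, a Notch target like Hes1, had 38.5, 51.4 and 47.8 CPM after LPS and 87.0, 119.6 and 102 CPM after saline (log2 −1.17, adjusted p 0.0105).

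Among genes that rose, Ptgds, which makes prostaglandin D, had 371, 1073 and 703 CPM in LPS knockouts and 161, 256 and 129 CPM in saline knockouts (log2 1.97, adjusted p 0.00799). The urea transporter gene Slc14a1 had 235, 192 and 206 CPM after LPS and 88.2, 88.1 and 95.6 CPM after saline (log2 1.22, adjusted p 0.0091). Agt, the precursor of angiotensin that astrocytes make, had 27.2, 116 and 179.6 CPM after LPS and 29.9, 21.2 and 16.3 CPM after saline (log2 2.26, adjusted p 0.0456). It was the call whose groups overlapped, with LPS knockout 1 inside the saline range. Ribosomal protein genes were among the calls, with Rplp0 at 26.4, 50.3 and 38.8 CPM after LPS against 12.2, 12.6 and 10.3 CPM after saline (log2 1.72, adjusted p 0.00718), and their processed copies may share reads.

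The next genes are known from myeloid cells, and were picked, not counted over a list. Of the listed markers 1 of 12 for microglia and 0 of 7 for border macrophages were called, beside 1.56% of all genes tested. Of the 12 microglia markers 10 had fold changes above 0, at a median log2 of 1.00. The microglia receptor gene P2ry12 went against most of its list and was not called. It had 5.30, 8.29 and 8.52 CPM in LPS knockouts and 24.4, 13.7 and 11.1 CPM in saline knockouts. The signalling adaptor Tyrobp had 14.6, 51.2 and 25.4 CPM in LPS knockouts and 4.64, 12.1 and 7.18 CPM in saline knockouts (log2 1.93, adjusted p 0.0373), and Fcgr3, an antibody receptor, had 9.90, 43.6 and 26.1 CPM after LPS and 2.00, 3.52 and 3.01 CPM after saline (log2 3.22, adjusted p 0.0272). Both followed the order of the microglia marker sums, 172, 759 and 347 CPM in LPS knockouts 1, 2 and 3. Border macrophage sums, at 5.78, 27.1 and 10.8 CPM, had the same order. The oxidase subunit gene Cybb had 9.32, 9.86 and 4.13 CPM after LPS and 0.144 to 0.422 CPM after saline (log2 4.97, adjusted p 0.00197), an order that the microglia sums did not share. Siglec1, known from macrophages, had 1.62, 4.74 and 1.99 CPM after LPS and no read in saline knockouts, and Spp1 had 3.65, 5.39 and 0.562 CPM after LPS and no read in saline knockouts. The part of other cells in these values was not tested.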
